A study of Homo sapiens with 64 samples.

Results

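The EGF receptor family and its ligands were followed here as 10 genes, chosen by symbol: the ligands EREG, AREG, TGFA, HBEGF, EPGN, BTC and NRG1 and the receptors EGFR, ERBB2 and ERBB3. All 10 were found by their Ensembl identifiers among the 54127 genes of the count files. Growth factors of this family are made as membrane-anchored precursors and are released by metalloproteases such as ADAM10 and ADAM17. They bind receptor tyrosine kinases that pair with each other and signal through the RAS-ERK and PI3K cascades. In colorectal tumors, EREG and AREG levels are known as markers of dependence on EGFR, the target of the antibodies cetuximab and panitumumab.

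RNA was sequenced from 6 established human colorectal cancer cell lines, HT55, SW948, RKO, SW48, DLD1 and HCT15. In the study these stand for 3 expression subtypes, CCS1 for HT55 and SW948, CCS2 for RKO and SW48, and CCS3 for DLD1 and HCT15. Cells of every line were labelled with CFSE, a fluorescent dye that is diluted at each division, and were grown as spheroids without serum or attachment for 6 days. The medium held EGF, itself an EGFR ligand, and bFGF in all 64 libraries, so no group was free of added ligand. Label-retaining cells (LRCs), which had kept the dye and are the dormant fraction, and non-LRCs, the cycling remainder labelled BULK, were sorted with 4 replicates of each per line. A further 16 unsorted libraries labelled DLD1 were treated with CFSE or with DMSO, the solvent without dye, and were taken at day 1 or at a later day that the labels give as 5 and the series text as 6 (4 replicates each). Each library held 12237225 to 20913455 reads on genes, and the unit used between libraries is CPM, counts scaled to a common library size after adjustment by the trimmed mean of M values (TMM).

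Some libraries went against their labels or stood apart. The 16 unsorted libraries labelled DLD1 were each closest to a sorted HCT15 library (16 of 16) and not to a sorted DLD1 library (0 of 16). The correlation across 11748 genes of their group means with non-LRCs was 0.919 to 0.987 for HCT15 and 0.863 to 0.920 for DLD1. Of 30 genes above 5 CPM in sorted HCT15 and under 0.3 CPM in sorted DLD1, 28 to 30 were at 1 CPM or more in each unsorted library, whereas of 24 genes with the opposite pattern 0 to 1 were. The files do not say which labels are off, so the unsorted libraries are called the libraries labelled DLD1 controls, and they are not set against the sorted DLD1 libraries as the same line. Replicate 4 of the DMSO day 1 libraries correlated at 0.944 to 0.958 with the other 3 of its group and at 0.968 to 0.993 with the DMSO day 5 libraries. In DLD1, HCT15 and the CFSE controls, replicates 1 and 2 were closer to each other, and 3 and 4 to each other, than any pair across them (6 groups). The 7 epithelial markers summed to 2678 CPM or more in each library of the other lines and to 217 to 324 CPM in RKO. In RKO non-LRCs KRT18 (123 CPM), KRT8 (75.1 CPM), CDX2 (20.8 CPM) and EPCAM (16.2 CPM) were detected, while CDH1 (0.926 CPM), KRT19 (0.816 CPM) and VIL1 (0.284 CPM) were under 1 CPM, and in SW48 non-LRCs VIL1 was at 3.42 CPM. Of the markers of other cell types, CD3E (T cells) had no read in any group, and CDH5 (endothelium) and COL1A2, DCN and PDGFRA (fibroblasts) stayed under 1 CPM in every group. VWF (endothelium) reached 2.78 CPM in DLD1 LRCs, COL1A1 (fibroblasts) 9.35 CPM in SW948 LRCs, CD14 (monocytes) 7.82 CPM in the CFSE day 1 controls, PTPRC (leukocytes) 15.5 CPM in SW48 non-LRCs and LYZ 1375 CPM in SW948 non-LRCs.

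Of the ligands, 4 lie in a cluster on chromosome 4 of the genome build used for alignment (hg19, GRCh37): EPGN at chr4:75174187-75182506, EREG at chr4:75230862-75254466 and AREG at chr4:75310853-75320722 on the plus strand, and BTC at chr4:75669969-75719733 on the minus strand. In this build AREG, which encodes amphiregulin, has a second annotated copy, AREGB. The coding sequences of both copies have 756 bases and differ at 1 of them, position 30 counted from the A of the start codon (G30A, AREG base first). The coding part of the first exon is shown because it holds that base, which is in capitals, at chr4:75311063-75311123 in AREG and chr4:75480839-75480899 in AREGB (GRCh37, plus strand):
AREG: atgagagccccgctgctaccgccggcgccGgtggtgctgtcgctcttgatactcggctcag
AREGB: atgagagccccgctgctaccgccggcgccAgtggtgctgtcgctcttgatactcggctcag

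A read of 50 bases tells the copies apart only when it crosses this base, which is the case for 50 of 1185 start positions of the main AREG transcript (4.22%). Over all annotated AREG transcripts, 94% of the 50-base windows also occurred in AREGB. The AREG counts therefore rest on a small share of its transcript and understate its level, and AREG is compared here only between libraries and never with other genes. AREGB itself had 11 reads in all 64 libraries. For the other members, windows shared with another gene were at most 9.44% (NRG1), 5.71% (ERBB2, with its neighbours MIEN1 and PGAP3 among others) and 1.87% (EPGN), and for EGFR 0.858% lay in EGFR-AS1, whose reads cannot be told from those of EGFR where counting ignores strand.

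AREG aside, the lines differed in which ligand was the most abundant. Levels were compared per length (RPKM, CPM divided by the kilobases of annotated exon). AREG was left out because its counts understate its level, so its rank among the ligands is not known. Of the other ligands, EREG, which encodes epiregulin, was the most abundant in non-LRCs of DLD1 (102 RPKM), SW48 (77.6 RPKM), HCT15 (37.3 RPKM) and SW948 (23 RPKM). In HCT15 this held for the mean and for replicates 1 and 2, whereas in replicates 3 and 4 TGFA (20.03 and 21.26 RPKM) was above EREG (17.11 and 16.99 RPKM). TGFA, which encodes TGF-alpha, led these other ligands in HT55 at 21.7 RPKM, ahead of HBEGF at 8.2 RPKM. In RKO, HBEGF, the heparin-binding EGF-like growth factor, led at 3.67 RPKM, and TGFA followed at 0.578 RPKM. In edgeR's quasi-likelihood test across the 24 non-LRC libraries, all 8 members with enough counts differed between lines, as did 98.3% of all genes tested, so a call there says little about a given gene and the levels themselves are given.

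EREG varied widely between lines. Its non-LRC level was 585.5 ± 115 CPM (SD, n = 4) in DLD1, 443.6 ± 157 CPM in SW48, 213.3 ± 141 CPM in HCT15, 131.4 ± 20.1 CPM in SW948, 22.64 ± 6.83 CPM in HT55 and 0.3192 ± 0.298 CPM in RKO. The replicates of neighbours in this order overlapped from DLD1 down to SW948, while HT55 and RKO each lay apart from the line above. The HCT15 libraries fell into 2 levels, 275 and 383 CPM in replicates 1 and 2 and 97.8 and 97.0 CPM in replicates 3 and 4. AREG was likewise highest in SW48 (11.06 ± 3.52 CPM), DLD1 (6.037 ± 1.82 CPM) and SW948 (5.968 ± 0.754 CPM), with overlapping replicates, and lower in HT55 (1.386 ± 0.436 CPM) and HCT15 (1.263 ± 0.538 CPM). In RKO AREG had 0 reads in 8 libraries, where the limit that a count of 0 allows (3 reads) is 0.158 to 0.253 CPM per library and 0.0254 CPM over the 8. Intervals and limits of this kind cover counting error only. The AREG limit applies to reads that can be told from AREGB, a small share, so it does not bound all AREG RNA.

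Over the 12 line and population groups, EREG and AREG levels had a Pearson r of 0.917 (mean log2 CPM, a description over 12 groups that come from 6 lines and include RKO, with no AREG read). HT55 and HCT15 had like AREG levels (1.386 and 1.263 CPM) although EREG was 22.64 CPM in HT55 and 213.3 CPM in HCT15. The genes most like EREG over these groups were ARHGEF26 (r = 0.987), MBP (r = 0.981) and ZNF311 (r = 0.981). Those most like AREG were LEPR (r = 0.972), HPGD (r = 0.968) and WDR72 (r = 0.959). Each list holds the highest r among 16603 genes tested, over the same 12 groups of 6 lines, so high values come with the choice. The stretches of 250 bases before the starts of these ligand genes are shown because these neighbours in the cluster were the ligands compared across lines above; they are from the RefSeq promoter table of another build (GRCh38.p14), at chr4:74364895-74365144 for EREG and chr4:74444886-74445135 for AREG, both on the plus strand. Capitals mark TATAAA and GGGCGG (or its reverse complement) as letters found on either strand:
EREG: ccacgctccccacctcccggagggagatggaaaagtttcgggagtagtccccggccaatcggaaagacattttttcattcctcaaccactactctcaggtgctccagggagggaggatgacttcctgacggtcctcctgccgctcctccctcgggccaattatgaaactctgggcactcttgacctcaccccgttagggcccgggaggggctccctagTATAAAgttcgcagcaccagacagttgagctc
AREG: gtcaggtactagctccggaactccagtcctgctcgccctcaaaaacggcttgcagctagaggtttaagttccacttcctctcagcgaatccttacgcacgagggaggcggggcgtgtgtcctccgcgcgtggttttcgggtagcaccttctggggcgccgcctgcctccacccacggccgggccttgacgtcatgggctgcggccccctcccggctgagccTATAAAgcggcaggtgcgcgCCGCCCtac

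TATAAA occurred once in each stretch and in 10.7% of the 35116 promoters of the table. GGGCGG occurred once in the AREG stretch and not in that of EREG, and in 42.6% of all promoters. TGANTCA, the third motif searched, was in neither and in 6.57% of all promoters. These matches are descriptions of the letters, and no binding or methylation was measured.

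TGFA was similar in 4 lines and far lower in the CCS2 lines. Its non-LRC level was 127.1 ± 12.4 CPM in DLD1, 106.9 ± 23.2 CPM in HT55, 89.25 ± 6.8 CPM in SW948 and 87.75 ± 16.2 CPM in HCT15, with overlapping neighbours, against 20.24 ± 2.31 CPM in SW48 and 2.84 ± 0.666 CPM in RKO. HBEGF varied least of the ligands, from 24.52 ± 4.56 CPM in HT55 to 5.421 ± 1.67 CPM in DLD1, and its replicates overlapped between neighbours from HT55 down to SW948. BTC, which encodes betacellulin, ranged from 34.7 ± 7.62 CPM in SW48 to 1.377 ± 0.306 CPM in RKO, and no neighbouring lines overlapped. EPGN (epigen) had 45 reads in all 64 libraries and at most 0.236 CPM, and NRG1 (neuregulin 1, a ligand of ERBB3) had 1 read in 1 library. Neither had enough reads to be tested with the filter on low counts. Without the filter EPGN passed over the 6 lines of LRCs and non-LRCs (adjusted p = 0.0138) and between lines (adjusted p = 0.022), at no more than 0.236 CPM in any library.

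Among the receptors, EGFR was highest in SW48 (1366 ± 179 CPM), with no overlap with HCT15 (437.3 ± 244 CPM). HCT15 again held 2 levels, 641 and 656 CPM in replicates 1 and 2 and 215 and 238 CPM in replicates 3 and 4. DLD1 (237.3 ± 27.1 CPM), SW948 (235 ± 2.93 CPM) and HT55 (213.7 ± 20.3 CPM) overlapped in order, and RKO was lowest at 72.13 ± 8.57 CPM. The genes most like EGFR over the 12 groups, picked in the same way as for EREG, were ERV3-1 (r = 0.975), MST1 (r = 0.974) and SYTL1 (r = 0.971). ERBB2, the family member with no ligand of its own, was the most even, from 451.9 ± 38.4 CPM in DLD1 to 154 ± 12.5 CPM in RKO. ERBB3, whose kinase is largely inactive and which signals through its partners, was 1157 ± 60 CPM in HT55, 682.4 ± 33.9 CPM in DLD1 and 653.7 ± 15.2 CPM in SW948, but 324.3 ± 40.6 CPM in SW48 and 307.5 ± 25.8 CPM in HCT15, and 23.78 ± 1.51 CPM in RKO. Per length the leading receptor was ERBB3 in HT55 (98.8 RPKM), DLD1 (58.3 RPKM) and SW948 (55.8 RPKM), EGFR in SW48 (85.7 RPKM), and ERBB2 in RKO (14.9 RPKM). In HCT15 ERBB2 led by the mean (32.4 RPKM) and in replicates 3 and 4 (34.73 and 34.5 RPKM, EGFR 13.47 and 14.93 RPKM). EGFR led in replicates 1 and 2 (40.21 and 41.13 RPKM, ERBB2 34.09 and 26.13 RPKM). These values use the union of annotated exons (15941 bases for EGFR, 10321 for ERBB2). With the longest transcript as length (9905 and 4930 bases), ERBB2 still led the HCT15 mean. ERBB2 was then ahead in replicate 1 as well, and EGFR in replicate 2 only.

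The remaining family members were near the limit of detection. EGF peaked at 2.13 ± 0.607 CPM in DLD1 non-LRCs and the ligand NRG2 at 1.4 ± 0.301 CPM in the DMSO day 5 controls. ERBB4, the fourth receptor, was at most at 0.196 ± 0.086 CPM, NRG4 at 0.17 ± 0.116 CPM and NRG3 at 0.0197 ± 0.0393 CPM, expressed as group means.

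**Figure D1:**
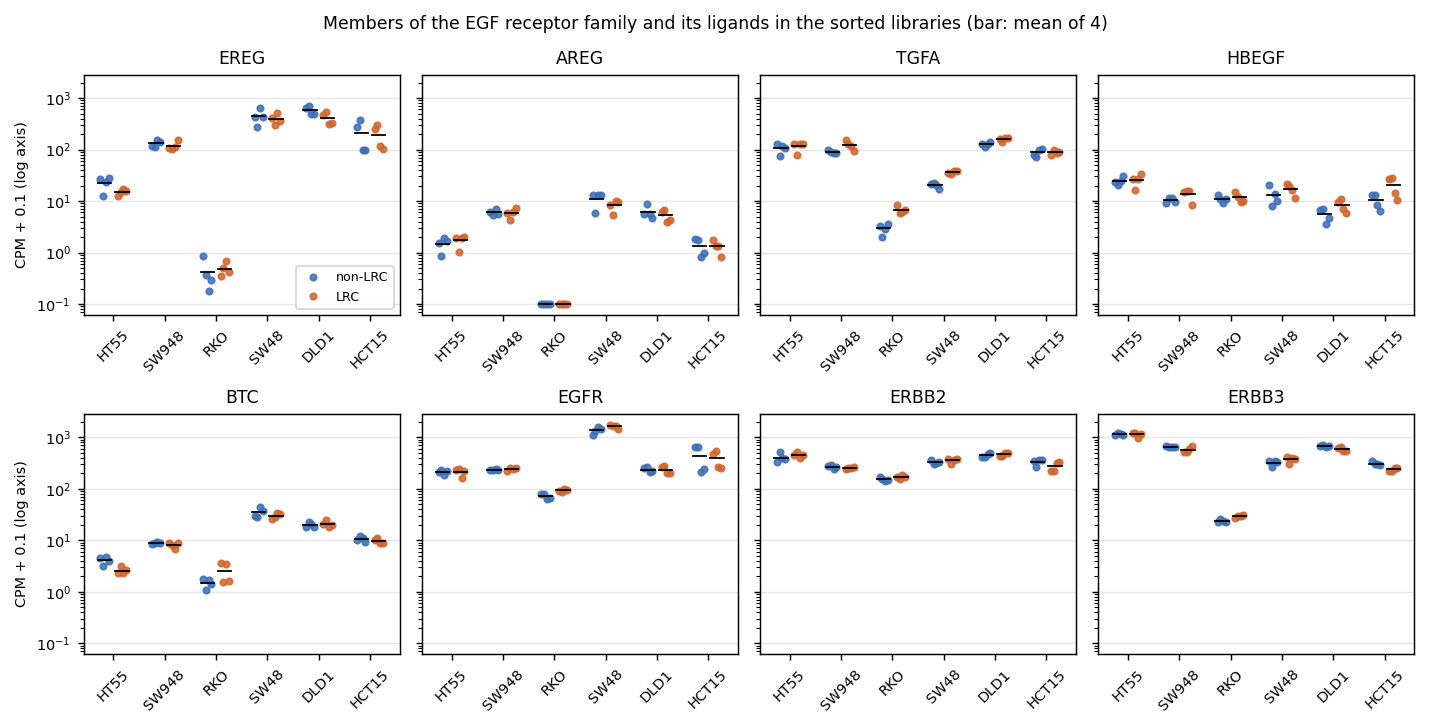
Level of 8 members in each of the 48 sorted libraries, as CPM plus 0.1 on a log axis, by cell line, with non-LRCs in blue and LRCs in orange and a bar at the mean of 4 replicates. EREG spans from 585.5 CPM in DLD1 to 0.3192 CPM in RKO non-LRCs, AREG has no read in RKO, and ERBB2 is the most even gene shown.

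The comparison of LRCs with non-LRCs asks how dormant cells differ from cycling cells of the same spheroids. Fitted over all 6 lines with the line as a covariate, 2 of 8 tested members passed at an adjusted p of 0.05, where 22.9% of all genes tested did. TGFA was 1.34-fold higher in LRCs (log2 difference 0.42, SE 0.08, adjusted p = 0.000129), and HBEGF was also 1.34-fold higher (log2 difference 0.42, SE 0.12, adjusted p = 0.00727). The other 6 did not pass: EREG had a log2 difference of -0.28 (adjusted p = 0.124), AREG -0.14, BTC -0.08, EGFR 0.09, ERBB2 0.03 and ERBB3 -0.04. The median over the 8 members was -0.01 on the log2 scale, beside 0.01 over all genes. In sorted populations, more cells that express a gene and more RNA per cell cannot be told apart. LRCs were the higher of the same-numbered libraries in 22 of 24 cases for TGFA and 21 of 24 for HBEGF, and in 8 of 24 for EREG. In SW948 and RKO the numbers did not pair the libraries, and such cases were not counted for all genes. TGFA passed whichever line or replicate number was left out. HBEGF did not pass without replicate 3 (adjusted p = 0.0514) or, in a fit chosen after seeing the data, without DLD1 and HCT15 (log2 difference 0.24, adjusted p = 0.168), whereas TGFA did in the latter (0.57, adjusted p = 0.000428). Without HCT15, EREG (log2 difference -0.32, adjusted p = 0.0263) and EGFR (0.15, adjusted p = 0.0392) passed too, and EGFR also passed without DLD1 and HCT15 (0.17, adjusted p = 0.0371). EREG passed with the replicate block as well (log2 difference -0.25, adjusted p = 0.00648).

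**Figure D2:**
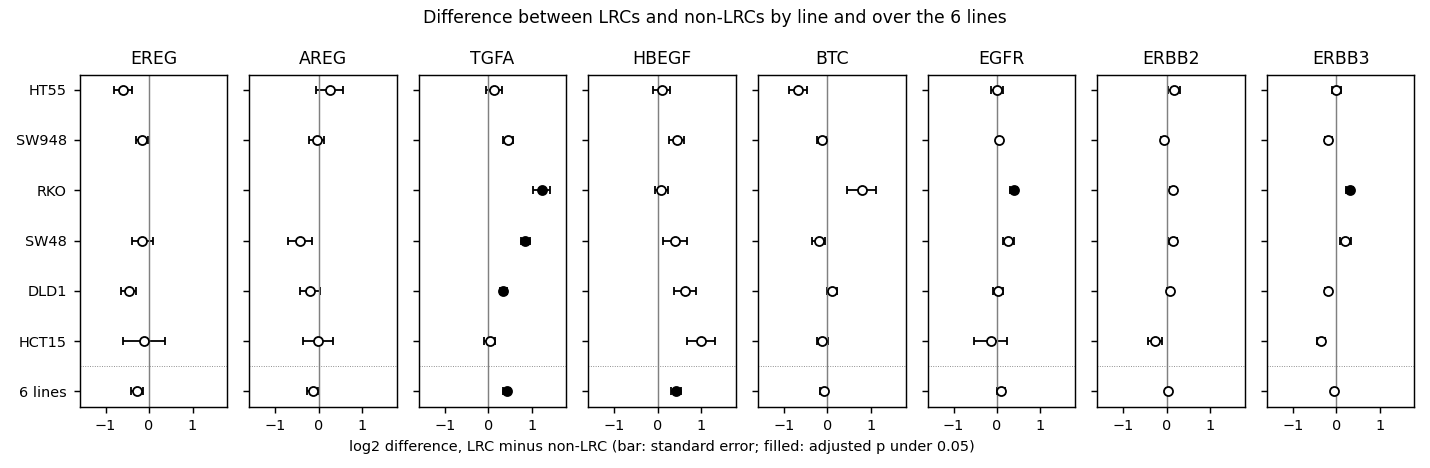
Log2 difference of LRCs minus non-LRCs for 8 members in each line and over the 6 lines, with standard errors as bars, where filled points passed an adjusted p of 0.05 in edgeR's test and genes with too few counts are left out. TGFA is filled in RKO (1.23), SW48 (0.85) and DLD1 (0.35) and HBEGF only over the 6 lines (0.42).

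The size of the LRC change differed between lines for 3 of 8 tested members in a test of the interaction itself, where 14.3% of all genes did: ERBB3 (adjusted p = 0.00106), TGFA (adjusted p = 0.00347) and BTC (adjusted p = 0.022). Without replicate 1 none of the 3 passed, with adjusted p of 0.0569 for ERBB3, 0.0592 for TGFA and 0.3 for BTC. Without replicate 3, TGFA (adjusted p = 0.112) and BTC (0.233) did not pass, and BTC did not without replicate 4 (0.0938). Without DLD1 and HCT15, ERBB3 did not pass (adjusted p = 0.0667). For HBEGF the difference between lines was not detected (adjusted p = 0.411), nor for EREG (adjusted p = 0.893). In the blocked fit, whose replicate numbers paired the libraries in 4 of the 6 lines, 7 members differed between lines, where 5584 of 16603 genes did. They were HBEGF (adjusted p = 0.00699), ERBB2 (0.00631), EGFR (0.0306) and EREG (0.0409) besides ERBB3, TGFA and BTC.

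In RKO, 3 of 6 tested members passed, where 41.5% of all genes did. TGFA was 3.23, 1.94, 2.74 and 3.44 CPM in non-LRCs and 8.19, 5.87, 6.06 and 6.64 CPM in LRCs. Every LRC library was above every non-LRC library, a 2.35-fold difference (log2 1.23, SE 0.19, adjusted p = 0.000123) at a low level. EGFR was 78.2, 80.5, 62.8 and 67.0 CPM in non-LRCs and 92.5, 88.1, 99.1 and 96.8 CPM in LRCs, again without overlap and 1.31-fold higher (log2 0.38, SE 0.08, adjusted p = 0.00134), although with all 48 sorted libraries in the fit its adjusted p was 0.188. ERBB3 was 22.9, 26.0, 23.2 and 23.0 CPM in non-LRCs and 26.5, 29.4, 30.2 and 31.6 CPM in LRCs, 1.24-fold higher (log2 0.31, SE 0.08, adjusted p = 0.00774). BTC was 1.377 CPM in non-LRCs and 2.464 CPM in LRCs with overlapping replicates (log2 0.79, adjusted p = 0.063), and passed with DESeq2 (adjusted p = 0.0468), in the fit of all 48 sorted libraries (0.0134) and without either RKO_LRC replicate 2 (0.0259) or replicate 4 (0.0293). EREG and AREG had too few reads to be tested in RKO. Of the epithelial markers, 2 of 6 tested were higher in RKO LRCs, and their summed level was 217 to 253 CPM in non-LRCs and 272 to 324 CPM in LRCs; their part in the receptor values was not tested.

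In SW48, 1 of 8 tested members passed, where 0.796% of all genes did. TGFA was 20.86, 22.41, 20.73 and 16.97 CPM in non-LRCs and 35.3, 33.4, 38.2 and 38.3 CPM in LRCs. The groups lay apart, 1.8-fold (log2 0.85, SE 0.10, adjusted p = 0.00824), and TGFA was thus among the 105 genes called in this line. EGFR was 1366 CPM in non-LRCs and 1629 CPM in LRCs (log2 0.26, SE 0.12, adjusted p = 0.378), and HBEGF was 13.07 and 17.04 CPM (log2 0.39, SE 0.28, adjusted p = 0.599), both with overlapping replicates.

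In DLD1, 1 of 8 tested members passed, where 14.6% of all genes did. TGFA was 127, 111, 130 and 141 CPM in non-LRCs and 158, 142, 167 and 169 CPM in LRCs, without overlap and 1.27-fold higher (log2 0.35, SE 0.08, adjusted p = 0.0157), although with all 48 sorted libraries in the fit its adjusted p was 0.2. EREG was 653, 713, 491 and 485 CPM in non-LRCs and 477, 548, 319 and 326 CPM in LRCs. The LRC value was the lower of each same-numbered pair (log2 difference -0.47), though the groups overlapped, and EREG passed without DLD1_LRC replicate 2 (log2 -0.62, adjusted p = 0.0367). Same-numbered DLD1 libraries deviated together. With the replicate number as a block 4 members passed, where 4591 of 13592 genes did: TGFA (adjusted p = 4.53e-07), EREG (6.35e-09 against 0.109 without the block), HBEGF (0.000432 against 0.115, log2 0.63) and ERBB3 (0.00113 against 0.106, log2 -0.18). HBEGF was 6.57, 7.04, 3.47 and 4.61 CPM in non-LRCs and 9.69, 10.7, 6.77 and 5.66 CPM in LRCs.

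In HCT15, 0 of 8 tested members passed, where 0.977% of all genes did; 2 members were under an unadjusted p of 0.05, and 1, ERBB3, passed with DESeq2 (adjusted p = 0.00944). HBEGF was 13.2, 13.3, 8.21 and 6.33 CPM in non-LRCs and 27.3, 28.3, 14.1 and 10.6 CPM in LRCs. It was higher in the LRC of each same-numbered pair, by a log2 difference of 1.06 in replicates 1 and 2 and 0.75 in replicates 3 and 4. ERBB3 was 345, 301, 297 and 287 CPM in non-LRCs and 226, 219, 251 and 255 CPM in LRCs, without overlap (log2 -0.35, SE 0.09, adjusted p = 0.0938). Same-numbered HCT15 libraries also deviated together. With the replicate block 3 members passed, where 2987 of 14017 genes did: HBEGF (log2 0.96, adjusted p = 8.55e-06), ERBB3 (log2 -0.35, adjusted p = 0.00275) and ERBB2 (log2 -0.29, adjusted p = 0.0198). TGFA was 87.75 CPM in non-LRCs and 88.37 CPM in LRCs (log2 0.03, SE 0.13).

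In HT55, 0 of 8 tested members passed, where 0% of all genes did (0 of 13391 in edgeR's test; 7.51% were under an unadjusted p of 0.05, 2 members among them, and DESeq2 called 37 genes). BTC was 4.42, 3.06, 4.63 and 3.84 CPM in non-LRCs and 2.23, 3.03, 2.19 and 2.52 CPM in LRCs, a log2 difference of -0.68 (SE 0.20, adjusted p = 0.52) with groups that did not overlap. EREG was 22.64 CPM in non-LRCs and 14.89 CPM in LRCs (log2 -0.60, SE 0.21, adjusted p = 0.599). Without HT55_BULK replicate 2, the lowest non-LRC library at 12.7 CPM, its adjusted p was 0.00409, in a fit that called 521 of 13290 genes. TGFA was 106.9 and 116.5 CPM (log2 0.13, SE 0.19).

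In SW948, 0 of 8 tested members passed, where 0% of all genes did (0 of 13674 in edgeR's test; 17.2% were under an unadjusted p of 0.05, 2 members among them, and DESeq2 called 244 genes). TGFA was 99.1, 88.3, 85.4 and 84.2 CPM in non-LRCs and 151, 126, 116 and 92.3 CPM in LRCs (log2 0.45, SE 0.12, adjusted p = 0.15). The LRC libraries were higher save replicate 4, which lay within the non-LRC range. With DESeq2 TGFA passed (adjusted p = 0.0364). Without SW948_LRC replicate 4, edgeR's test called 1956 of 13517 genes. Among them were TGFA (adjusted p = 0.00148), HBEGF (log2 0.61, adjusted p = 0.0038) and ERBB3. With all libraries ERBB3 was 653.7 CPM in non-LRCs and 575 CPM in LRCs.

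**Figure D3:**
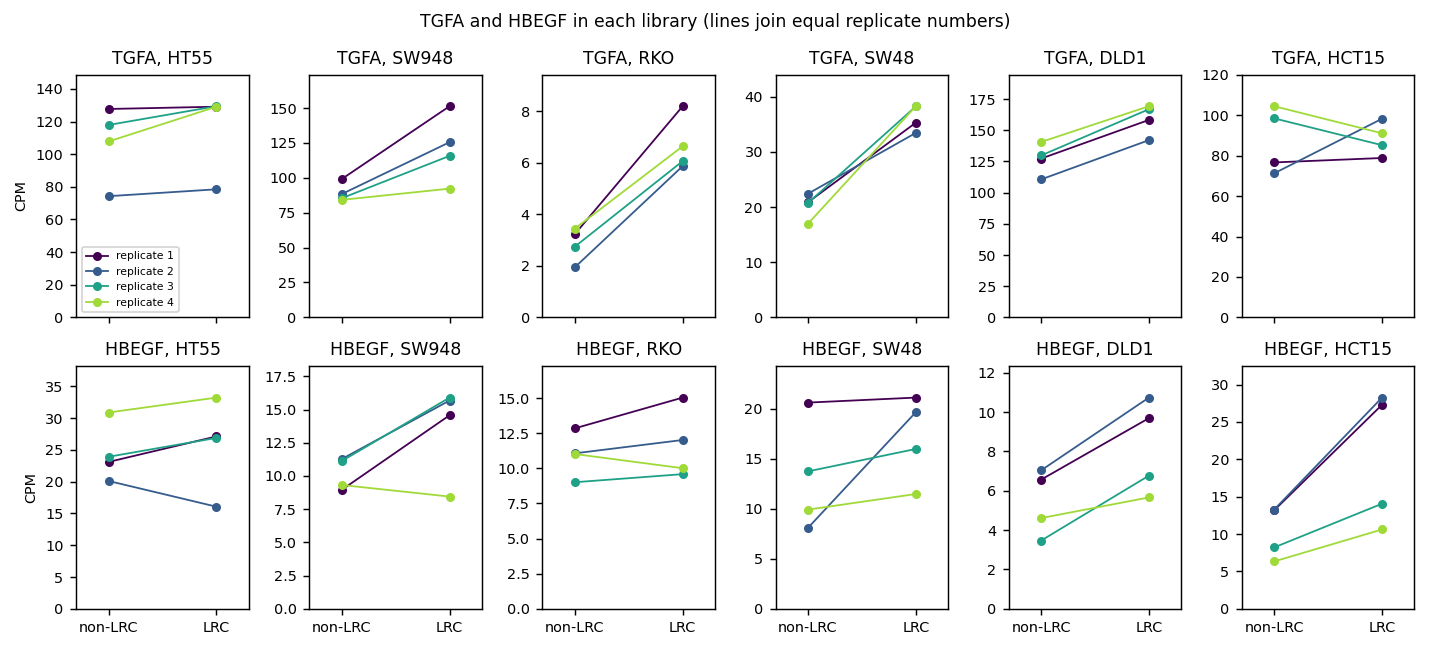
TGFA (top) and HBEGF (bottom) in CPM in each sorted library of the 6 lines, with non-LRCs on the left and LRCs on the right of each panel and lines that join libraries of equal replicate number, on axes that start at 0 and differ between panels. The LRC value of TGFA is the higher of every joined pair in HT55, SW948, RKO, SW48 and DLD1 and of 2 of 4 in HCT15, and that of HBEGF is the higher of all 4 pairs in SW48, DLD1 and HCT15.

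The other genes of the pathway are given by list over the 6 lines, where 22.9% of all genes passed. Of 20 adaptors and members of the RAS-ERK cascade, 4 were higher in LRCs and 0 lower, with a list median of 0.02 on the log2 scale. The 3 with the smallest p were SOS2, a RAS exchange factor (log2 0.18, adjusted p = 0.00141), MAP2K1, the kinase MEK1 (0.14, adjusted p = 0.0221) and GAB2, a docking protein (0.21, adjusted p = 0.0252). Of 15 targets of ERK feedback, 1 was higher, DUSP5, a nuclear phosphatase of ERK (1.62-fold, log2 0.70, SE 0.19, adjusted p = 0.00477), and its change differed between lines (adjusted p = 0.0197), from 2.20 in SW948 to -0.48 in RKO. Of 17 receptor inhibitors and ubiquitin ligases, 2 were higher, LRIG2 (0.13, adjusted p = 0.0365) and SOCS5 (0.10, adjusted p = 0.0365), and 1 was lower, CBLC, an epithelial member of the CBL ligases (-0.23, adjusted p = 0.00543). Of 9 tested genes of ligand shedding and maturation, 1 was higher, the protease ADAM10 (0.10, adjusted p = 0.0386). In RKO alone, where 41.5% of genes passed, 8 of 15 ERK feedback targets did, 2 higher and 6 lower, and 7 of 20 cascade genes, 4 higher and 3 lower. Of 7 epithelial markers, 1 was lower over the 6 lines, VIL1 (log2 -0.30, adjusted p = 0.0241). Of these named genes only SOS2 kept its call in every alternative run. DUSP5 lost it without DLD1 and HCT15 (log2 0.41, adjusted p = 0.176), and MAP2K1, GAB2, ADAM10, CBLC, LRIG2, SOCS5 and VIL1 each lost it without at least 1 line and without at least 1 replicate number.

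The libraries labelled DLD1 controls ask what the dye and the days in culture do without a sort. From day 1 to day 5 in DMSO, 2 of 8 tested members passed, where 25.5% of all genes did. TGFA was 38.0, 41.4, 39.0 and 83.0 CPM at day 1 and 106, 91.7, 94.5 and 81.6 CPM at day 5 (1.81-fold, log2 0.85, SE 0.21, adjusted p = 0.0118). ERBB2 was 171, 179, 171 and 304 CPM at day 1 and 281, 300.0, 351 and 342 CPM at day 5 (1.51-fold, log2 0.59, SE 0.19, adjusted p = 0.031). In both genes replicate 4 of day 1 lay among the day 5 libraries. Without it 5 members passed, where 6077 of 14450 genes did: TGFA (log2 1.12, adjusted p = 2.4e-05), ERBB2 (0.75, adjusted p = 0.00176), ERBB3 (0.96, adjusted p = 0.0011), EREG (-0.74, adjusted p = 0.0277) and AREG (-1.12, adjusted p = 0.00884). TGFA did not pass without replicate 1 of day 1 (adjusted p = 0.0516), and ERBB2 did not without any of the other 3 day 1 libraries or without replicate 1, 3 or 4 of day 5 (adjusted p = 0.0525 to 0.106).

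From day 1 to day 5 with CFSE, 5 of 8 tested members passed, where 39.3% of all genes did, and 5 did with the replicate block as well. All 3 receptors were higher at day 5: EGFR by 1.33-fold (264.1 to 368.7 CPM, adjusted p = 0.0193), ERBB2 by 1.42-fold (152.4 to 227.4 CPM, adjusted p = 0.0395) and ERBB3 by 1.78-fold (116.5 to 217.4 CPM, adjusted p = 0.0142), none with overlapping replicates. The share of all genes whose groups lay apart was not counted in any comparison, so this separation has no background to be read against. BTC was 2.03-fold higher (5.336 to 11.4 CPM, adjusted p = 0.0103). HBEGF was 114, 107, 9.69 and 10.2 CPM at day 1 and 8.96, 8.63, 6.87 and 6.45 CPM at day 5. Its fitted difference, -3.06 on the log2 scale (SE 0.64, adjusted p = 0.00187), thus rested on replicates 1 and 2 of day 1, and without both of them 0 of 8 members passed in an edgeR fit chosen after seeing the data, in which HBEGF had a log2 difference of -0.49 (adjusted p = 0.262), BTC 0.56 (0.201), EGFR 0.26 (0.245), ERBB2 0.20 (0.516) and ERBB3 0.51 (0.234). Leaving out replicate 2 of day 1 alone left HBEGF as the call, and replicate 1 alone left HBEGF, BTC and ERBB3. EGFR also did not pass without replicate 2 of day 5, and ERBB2 did not without replicate 3 or 4 of day 5. Without TMM the count was 3 (HBEGF, BTC and ERBB3), and the split of all called genes was 1967 higher and 3484 lower in place of 2935 and 2771; in DMSO it was 714 and 2398 in place of 1793 and 1902, with TGFA as the 1 member called. Epithelial markers were higher at day 5 in 5 of 7 cases with CFSE and 4 of 7 with DMSO. With CFSE their summed level went from 4794 to 6343 CPM at day 1 to 6786 to 8773 CPM at day 5. Their part in the receptor values was not tested, and the marker counts were not taken without CFSE day 1 replicates 1 and 2.

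With CFSE against DMSO at day 1, 3 of 8 tested members passed, where 21.8% of all genes did. HBEGF was 8.96, 8.65, 6.999 and 3.28 CPM in DMSO, against the CFSE values above, of which replicates 1 and 2 lay far over DMSO and 3 and 4 close to it (log2 3.16, SE 0.64, adjusted p = 0.00411). BTC was 10.21 CPM in DMSO and 5.336 CPM with CFSE (log2 -0.90, SE 0.29, adjusted p = 0.0336), and ERBB3 195.9 and 116.5 CPM (log2 -0.71, SE 0.25, adjusted p = 0.0472). Without CFSE replicates 1 and 2, 0 members passed in edgeR's test, with HBEGF at a log2 difference of 0.53 (adjusted p = 0.416), BTC at -0.49 (0.463) and ERBB3 at -0.45 (0.505). BTC and ERBB3 also did not pass without either of these replicates alone (adjusted p = 0.114 to 0.152) or without replicate 4 of DMSO (0.11 and 0.18), a fit in which TGFA passed instead (log2 0.47, adjusted p = 0.0259). In addition, ERBB3 did not without TMM (0.0618), and BTC did not without replicate 3 of DMSO (0.0866). Of 15 ERK feedback targets, 5 were higher and 1 lower with CFSE at day 1, and of 7 epithelial markers 3 were lower. These list counts were not taken without CFSE replicates 1 and 2, where calls over all genes fell from 3162 to 196.

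With CFSE against DMSO at day 5, 1 of 8 tested members passed, where 5.13% of all genes did. EREG was 175, 199.9, 110 and 94.0 CPM in DMSO and 378, 411, 222 and 213 CPM with CFSE, every dyed library above every undyed one (2.12-fold, log2 1.09, SE 0.27, adjusted p = 0.0314). AREG stood at 0.6708 and 1.557 CPM, also without overlap (log2 1.20, SE 0.36, adjusted p = 0.0589), and passed with DESeq2 (adjusted p = 0.03). Further members whose groups did not overlap and that did not pass were HBEGF (4.157 CPM in DMSO and 7.727 CPM with CFSE, adjusted p = 0.426), TGFA (93.32 and 74.7 CPM, 0.359), ERBB2 (318.3 and 227.4 CPM, 0.12) and ERBB3 (315.2 and 217.4 CPM, 0.188). How many of all genes had groups without overlap was not counted, so this list has no background to be read against. The EREG call was lost without CFSE replicate 1 (adjusted p = 0.13) or 2 (0.132) and without DMSO replicate 1 (0.0692), 3 (0.0919) or 4 (0.0849). At day 1 EREG was 203.6, 206.1, 256.5 and 113.5 CPM in DMSO and 303.3, 270.3, 327.8 and 334.5 CPM with CFSE, without overlap (log2 0.70, SE 0.27, adjusted p = 0.071). The difference of the day effects between CFSE and DMSO passed for 0 of 8 members in edgeR's test, where 0.999% of all genes did; 1 member was under an unadjusted p of 0.05 (HBEGF, log2 -2.27, adjusted p = 0.214), and DESeq2 called 0. Without replicate 4 of DMSO day 1, TGFA passed (log2 -0.78, adjusted p = 0.0191), where 880 of 14450 genes did. The control comparisons share their 4 groups, so their values are given side by side and are not independent.

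**Figure D4:**
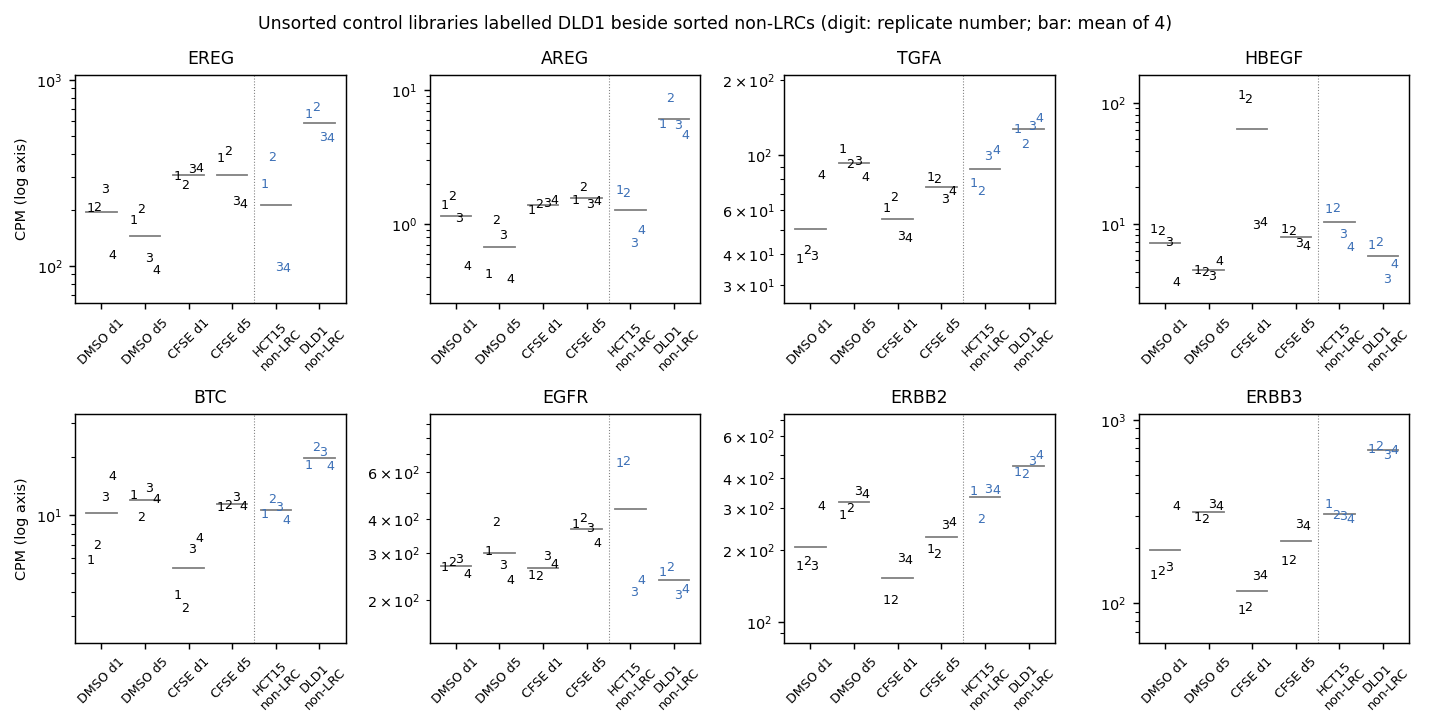
CPM on a log axis of 8 members in the 16 unsorted libraries labelled DLD1 controls, by dye and label day, beside sorted HCT15 and DLD1 non-LRCs in blue, with each library shown as its replicate number and a bar at the mean of 4. HBEGF in CFSE day 1 replicates 1 and 2 (114 and 107 CPM) lies apart, and DMSO day 1 replicate 4 sits among the day 5 values of TGFA, ERBB2 and ERBB3. ERBB3 in the controls is below sorted DLD1. With CFSE it is also below sorted HCT15 (287 to 345 CPM), at day 1 (91.1 to 141 CPM) and day 5 (168 to 268 CPM).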

How the data were processed

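The deposited files hold raw counts of reads per Ensembl gene, made by the authors from 50-base single-end reads aligned to hg19. The submitters' processing notes name TopHat, HTSeq and DESeq, without versions, and whether counting used strand is not given in the sources used here. Rows that name no gene stayed out of library sizes (reads on no annotated feature were 5.19% to 14.8% of reads). No library repeated another (the lowest mean chi-square per gene between replicates was 2.3). The study calls the replicates biological, but whether each was a separate culture is not given for each library, so p-values measure the spread between these libraries.

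Counts were tested with edgeR 4.0.16 in R 4.3.3 (quasi-likelihood test, TMM scaling, a gene entered a fit where 4 or more libraries had 10 counts or more, two-sided, Benjamini-Hochberg over all genes tested, threshold 0.05). The self-test on simulated counts ran before the fits. DESeq2 1.42.0, no TMM, no filter, the replicate number as a block, 1 fit of all 48 sorted libraries and leaving out libraries, replicate numbers or lines were the alternatives. Fits without DLD1 and HCT15, and without CFSE day 1 replicates 1 and 2, were added after seeing the data. RPKM used the union of annotated exons (GENCODE lifted to GRCh37). The members and the pathway lists were chosen with earlier results of these data known. Besides the members, up to 3 genes of each list with the smallest p over the 6 lines and an adjusted p under 0.05, the other family members, and the 3 genes most like EREG, AREG and EGFR were named. Of 96 listed genes, 95 were matched (PECAM1 was not). Log2 CPM used a prior count of 2.

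Same-numbered LRC and non-LRC libraries deviated together in every pair in HT55 (correlation of deviations from group means 0.22 to 0.51), SW48 (0.19 to 0.61), DLD1 (0.25 to 0.50) and HCT15 (0.33 to 0.56), and across days with CFSE (0.18 to 0.31), so these were read as paired, from the data and not from the labels. The rule asked for a correlation over 0.1 in every pair. SW948, RKO and the days in DMSO did not meet it, nor did CFSE against DMSO, where all pairs were positive but the lowest was 0.062 at day 1 and 0.066 at day 5.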

Additional observations from a re-analysis of the deposited data

Results flagged for a closer look

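In groups of 4 libraries, 9 of 123 member and group combinations held a library far from the other 3 relative to the range of the group, where chance flags about 1 in 20. Replicate 4 of DMSO day 1 stood far above the others in TGFA (83 CPM), ERBB2 (304 CPM) and ERBB3 (336 CPM). Replicate 2 of HT55 LRCs was the low library in AREG (0.925 CPM) and TGFA (78.5 CPM), replicate 2 of SW48 non-LRCs in AREG (5.79 CPM) and replicate 2 of HCT15 non-LRCs in ERBB2 (270 CPM). Replicate 2 of RKO non-LRCs was the high library in ERBB3 (26 CPM), and replicate 3 of CFSE day 5 in BTC (12.3 CPM).

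The LRC difference was not the same in the 6 lines, by a test of the interaction in edgeR, for ERBB3 (adjusted p = 0.00106), TGFA (adjusted p = 0.00347) and BTC (adjusted p = 0.022). None of the 3 passed without replicate 1 (0.0569, 0.0592 and 0.3).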

How the results depend on the processing

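Of 1438 values of single members under the alternatives, 1334 kept their side of the threshold, 51 were no longer called, 53 were newly called and 0 called values changed sign; 61 uncalled ones did. For the named pathway genes 56 of 135 values were no longer called and 0 reversed. The cause of these moves was not tested.

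Without the filter on low counts the members called were 2 in SW948, 3 in DLD1, 1 in HCT15 and 1 for the difference of the day effects. With DESeq2 they were 1 in SW948, 1 in HCT15 and 2 for CFSE against DMSO at day 5. With all 48 sorted libraries in a fit they were 0 in DLD1 and 2 in HCT15. Without HCT15 they were 4 over the 6 lines. Without TMM they were 1 from day 1 to day 5 in DMSO and 3 with CFSE, where the median of all genes moved from 0.04 and 0.02 to -0.09 (log2). Without CFSE day 1 replicates 1 and 2, chosen after seeing the data, they were 0 with CFSE over the days and 0 for CFSE against DMSO at day 1.

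With the replicate block 4 members were called in DLD1, 3 in HCT15, 1 in SW948, 7 for the difference between lines, 5 for CFSE against DMSO at day 1 (EREG, adjusted p = 0.0242, and ERBB2, 0.0321, added) and 4 at day 5 (AREG 0.0321, ERBB2 0.0251 and ERBB3 0.0361 added). The numbers paired the libraries in HT55, SW48, DLD1, HCT15 and the CFSE days only. The block also called EREG over the 6 lines (-0.25, adjusted p = 0.00648), BTC in RKO (0.0337) and ERBB3 over the days in DMSO (0.0086), and in the paired comparisons it changed no call of a member beyond those of DLD1 and HCT15.

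With 1 library, or 1 replicate number, left out, the members called ranged from 0 to 1 in HT55, 0 to 3 in SW948, 3 to 4 in RKO, 1 to 2 in DLD1, 1 to 2 over the 6 lines and 0 to 3 between lines. In the controls they ranged from 0 to 5 (days, DMSO), 1 to 5 (days, CFSE), 1 to 3 (dye, day 1), 0 to 3 (dye, day 5) and 0 to 1 (difference). Calls over all genes in these fits ranged from 0 to 521 in HT55, 0 to 1956 in SW948, 4306 to 5116 in RKO and 963 to 1784 in DLD1. They were 2243 to 2945 over the 6 lines and 522 to 2850 between lines. For the controls they were 963 to 6077, 4216 to 5566, 1358 to 3715, 0 to 812 and 16 to 880, in the same order.

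Over all genes, calls were 0 in HT55 against 102 without the filter, 37 with DESeq2 and 106 in the fit of 48. In SW948 these were 0 against 973, 244 and 389, and 501 with the replicate block. In SW48 they were 105 against 285, 361, 486 and 1279, and in HCT15 137 against 347, 531, 697 and 2987, in the same order. In DLD1 there were 1978 against 646 in the fit of 48 and 4591 with the block. The block gave 5584 for 2380 between lines and 3808 for 3162 for the dye at day 1. It gave 1511 for 745 for the dye at day 5, where DESeq2 gave 1521. Without RKO the 6 lines gave 2378 for 3803. Without CFSE day 1 replicates 1 and 2, 5706 became 2819 (days, CFSE), 3162 became 196 (dye, day 1) and 145 became 13 (difference), the last also 85 without TMM, 454 without the filter and 623 with DESeq2.

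Depth limits EPGN, NRG1, and EREG and AREG in RKO, which had too few reads to pass the filter. AREG counts rest on the few windows that differ from AREGB.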
